A study of Mus musculus with 12 samples.

Results

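The Cyp2c cytochromes are a cluster of closely related P450 genes, and 10 of them (Cyp2c29, Cyp2c37, Cyp2c38, Cyp2c39, Cyp2c44, Cyp2c50, Cyp2c54, Cyp2c55, Cyp2c67 and Cyp2c70) were read by symbol in RNA-seq counts of mouse liver. They are 10 of the 23420 genes listed in each of 2 count tables. The tables list 16 genes whose symbol starts with Cyp2c, and the other 6 are Cyp2c40, Cyp2c53-ps, Cyp2c65, Cyp2c66, Cyp2c68 and Cyp2c69. All 10 members passed the filter on low counts in every comparison.

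P450 enzymes sit in the endoplasmic reticulum and use haem and electrons passed on by P450 oxidoreductase (Por) to insert oxygen into their substrates. Those of the Cyp2c group oxidise drugs and steroids and turn arachidonic acid and other fatty acids into epoxides and hydroxy acids, and in liver they are made chiefly by hepatocytes. Several are induced through the nuclear receptor CAR, encoded by Nr1i3, and depend on hepatocyte factors such as HNF4α.

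The 12 poly(A) libraries fell into 4 groups of 3, all from mice of C57BL/6 background. The p62F/F group carried floxed alleles of Sqstm1, the gene of the autophagy adaptor p62, and no Cre. The p62Δhep group carried the same alleles with AlbCre, a Cre recombinase under the albumin promoter. The Tsc1Δhep group had floxed Tsc1 alleles and Cre, and the Tsc1/p62Δhep group had floxed alleles of both genes and AlbCre. The Tsc1 protein is part of a complex that keeps mTORC1, a kinase driving growth, in check. The albumin promoter is active in hepatocytes and in the precursors they share with bile duct cells, and which cells carried the deletions was not tested. No group had Cre without a floxed gene, and p62F/F was the one group without Cre, so the p62 deletion and Cre cannot be told apart in p62Δhep against p62F/F. The labels used here do not give age, the diet of each sample, or whether each library came from a separate animal. If it did not, p-values measure a spread between samples that may be technical.

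Library totals ran from 15792048 to 33377247 counts. Levels are given as CPM, counts scaled to library size, on 1 scale set by TMM over the 12 libraries, and levels of different tables, set side by side, were not tested. Sqstm1 was at 327 to 358 CPM in p62F/F and 12.7 to 20.4 in p62Δhep. In Tsc1Δhep it was at 771 to 1166 CPM and with both genes deleted at 14.0 to 19.1. Levels of Tsc1 were 26.8 to 41.0 CPM with intact Tsc1 and 5.27 to 13.3 in the deleted groups. The deleted genes thus matched the labels in every library. All 16 hepatocyte markers were detected in each group. Xist was at 0 to 0.188 CPM and the Y-linked gene Ddx3y at 62.5 to 134 in all 12. Tsc1Δhep library 1 stood apart from the other 2 of its group: its summed cholangiocyte and progenitor markers were at 5136 CPM against 2234 and 797, and its summed endothelial markers at 73.4 against 171 and 316. The first sum was mostly Spp1, whose mean over the 3 Tsc1Δhep libraries was 2620 CPM (SD 2182). Tsc1/p62Δhep library 1 held 13139 CPM of the ribosomal RNA precursor Rn45s, against 944 and 2045 in libraries 2 and 3 and 663 to 1433 in Tsc1Δhep. The other table held more in every library, at 25385 to 25880 CPM in p62F/F and 20968 to 37294 in p62Δhep. That table holds only groups with intact Tsc1, so a difference between tables and a difference by Tsc1 cannot be told apart here.

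Of the members, 7 have a close relative among the Cyp2c genes, which bears on how far each row of the tables can be read alone. The first 75 coding bases of the 2 closest sets are shown, from the GENCODE M21 transcripts on GRCm38, because 75 bases is the read length the labels give for the single-end runs. Capitals mark the positions at which the genes of a set are not identical.
Cyp2c37 (chr19:39992440-39992514, + strand): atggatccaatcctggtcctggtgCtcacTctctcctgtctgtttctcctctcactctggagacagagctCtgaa
Cyp2c54 (chr19:40073737-40073811, - strand): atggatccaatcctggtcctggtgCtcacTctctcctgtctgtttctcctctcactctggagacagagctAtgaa
Cyp2c50 (chr19:40089700-40089774, + strand): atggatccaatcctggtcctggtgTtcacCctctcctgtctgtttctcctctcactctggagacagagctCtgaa
Cyp2c67 (chr19:39648956-39649030, - strand): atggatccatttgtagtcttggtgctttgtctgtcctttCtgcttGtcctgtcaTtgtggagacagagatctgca
Cyp2c68 (chr19:39740967-39741041, - strand): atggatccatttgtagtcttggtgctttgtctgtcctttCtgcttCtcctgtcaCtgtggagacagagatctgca
Cyp2c69 (chr19:39886633-39886707, - strand): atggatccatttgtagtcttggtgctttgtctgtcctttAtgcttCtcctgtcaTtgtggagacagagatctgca

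In this window Cyp2c37 and Cyp2c54 differ at 1 position, Cyp2c37 and Cyp2c50 at 2, and each pair among Cyp2c67, Cyp2c68 and Cyp2c69 at 2. Over the whole coding sequence, Cyp2c37 and Cyp2c50 are 96.1% identical and Cyp2c54 and Cyp2c50 95.2%. Cyp2c67 is 97.7% identical to Cyp2c69 and 97.2% to Cyp2c68, neither of which is a member, and Cyp2c38 and Cyp2c39 are 94.2% identical.

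Of all 75-base windows of a transcript, the share found letter for letter in another gene was 36.0% for Cyp2c67, 17.8% for Cyp2c50, 14.1% for Cyp2c54 and 13.8% for Cyp2c37. With up to 2 mismatches these shares were 88.9%, 53.0%, 44.0% and 54.0%. They were 27.7% for Cyp2c39, 17% for Cyp2c38 and 3.74% for Cyp2c29. Cyp2c55, Cyp2c70 and Cyp2c44 had no such window, and their closest relatives were 77.5%, 69.5% and 66.5% identical. The labels do not say how reads that fit several genes were counted, so the split of counts between Cyp2c37, Cyp2c50 and Cyp2c54, between Cyp2c38 and Cyp2c39, and between Cyp2c67 and its neighbours is uncertain.

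All 16 Cyp2c genes lie on chromosome 19. In the RefSeq order the members follow as Cyp2c55, Cyp2c29, Cyp2c39, Cyp2c38, Cyp2c67, Cyp2c37, Cyp2c54, Cyp2c50, Cyp2c70 and Cyp2c44, which RefSeq lists as Cyp2c23. Cyp2c37, Cyp2c54 and Cyp2c50 are neighbours, in places 12 to 14 of the 16. RefSeq gives Cyp2c39 a first start upstream of Cyp2c38, which lies on the opposite strand, and a second start beyond it. Read from its first start, Cyp2c39 spans Cyp2c38, and whether strand was used in counting is not given. The coding sequences shown by GENCODE start apart, at base 39510871 for Cyp2c39 and 39463054 for Cyp2c38.

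RefSeq promoters (GRCm38.p6) were matched for 8 of the 10 members and not for Cyp2c54 or Cyp2c44. The 100 bases before the start are shown for 4 members with a rise described further on (Cyp2c37, Cyp2c50, Cyp2c67 and Cyp2c38) and for Cyp2c29 and Cyp2c70, the members with the highest level in p62F/F. Capitals mark matches, on either strand, to CAAAGNNCA (HNF4), TTGCNNAA (C/EBP) or the TATA box letters TATAAA.
Cyp2c37 (chr19:39992324-39992423, + strand): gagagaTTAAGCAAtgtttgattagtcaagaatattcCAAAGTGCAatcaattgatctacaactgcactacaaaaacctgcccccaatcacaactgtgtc
Cyp2c50 (chr19:40089579-40089678, + strand): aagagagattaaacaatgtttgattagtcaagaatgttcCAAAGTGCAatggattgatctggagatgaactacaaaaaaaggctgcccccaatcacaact
Cyp2c67 (chr19:39649043-39649142, - strand): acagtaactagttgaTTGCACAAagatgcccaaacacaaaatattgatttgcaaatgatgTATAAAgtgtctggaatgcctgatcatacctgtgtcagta
Cyp2c29 (chr19:39286985-39287084, + strand): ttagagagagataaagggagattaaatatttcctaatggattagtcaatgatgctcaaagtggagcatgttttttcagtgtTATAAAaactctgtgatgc
Cyp2c38 (chr19:39463076-39463175, - strand): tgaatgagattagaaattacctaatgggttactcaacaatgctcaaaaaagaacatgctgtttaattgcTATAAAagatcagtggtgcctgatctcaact
Cyp2c70 (chr19:40187287-40187386, - strand): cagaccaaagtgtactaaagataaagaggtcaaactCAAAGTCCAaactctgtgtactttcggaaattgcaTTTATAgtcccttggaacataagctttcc

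The letters CAAAGNNCA occurred in the 300-base promoter window (250 before to 50 after the start) of Cyp2c37, Cyp2c50, Cyp2c67 and Cyp2c70, that is in 4 of 8 members, and in 6.36% of all 32851 windows of that length in the RefSeq table. In Cyp2c37 the match spans bases -63 to -55 from the start, in Cyp2c50 -61 to -53, in Cyp2c70 -64 to -56 and in Cyp2c67 -125 to -117. TATAAA occurred in 6 of 8 members (Cyp2c55, Cyp2c29, Cyp2c39, Cyp2c38, Cyp2c67 and Cyp2c70) and in 13.6% of all windows. TGTTTAC (FOXA) occurred in Cyp2c38 and Cyp2c39 and in 3.65% of all windows, TTGCNNAA in Cyp2c67 and Cyp2c37 and in 10.8%, and AGGTCA, a motif bound by nuclear receptors, in Cyp2c29, Cyp2c39 and Cyp2c70 and in 16.3%. Cyp2c39 has 2 starts and so 2 windows, and a match in either was counted. Its TATAAA lies in the second window only, its AGGTCA in the first only, and TGTTTAC in both. GTTAAT (HNF1) occurred in no member's window and in 7.10% of all windows. Both strands were searched, and no matches overlapped in a member's window. The 250 bases upstream of Cyp2c37 and Cyp2c50 are 84.3% identical, so their shared match is not an independent pair. Part of these sequences had been seen when the motifs were chosen, so the shares beside those of all windows are a description without a test. Such matches describe letters and do not show that a factor binds.

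In livers with intact Tsc1 the levels of the members differed widely. Per kilobase of transcript, the highest level in p62F/F was that of Cyp2c29, at 565 CPM per kb, followed by Cyp2c70 at 466 and Cyp2c50 at 385. Cyp2c29 is an abundant, CAR-inducible epoxygenase of mouse liver, and Cyp2c70 makes muricholic acids from chenodeoxycholic acid in bile acid synthesis. Neighbours in this order overlapped between libraries, so these 3 were not separated. Cyp2c37 (169 CPM per kb), Cyp2c54 (137), Cyp2c67 (105) and Cyp2c44 (92.8) formed the next overlapping run. Cyp2c38 (17.7) stood below them without overlap, and Cyp2c55 (1.47) and Cyp2c39 (1.35) were lowest.

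The order was the same in p62Δhep except that Cyp2c67 and Cyp2c54 changed places, and these 2 overlapped. In Tsc1Δhep, Cyp2c70 (133 CPM per kb) and Cyp2c29 (105) had the highest means. Cyp2c29 overlapped both Cyp2c70 and the next gene, Cyp2c44 (16.7), since it ran from 10.4 to 260 CPM per kb with library 1 the highest, and Cyp2c50 was at 7.94 and Cyp2c54 at 1.98. In Tsc1/p62Δhep, Cyp2c29 (911), Cyp2c50 (748) and Cyp2c37 (594) led, each overlapping the next, while Cyp2c70 (175) was in the sixth place. Cyp2c39 was the lowest member in all 4 groups, at 0.715 to 1.35 CPM per kb on average.

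**Figure D1:**
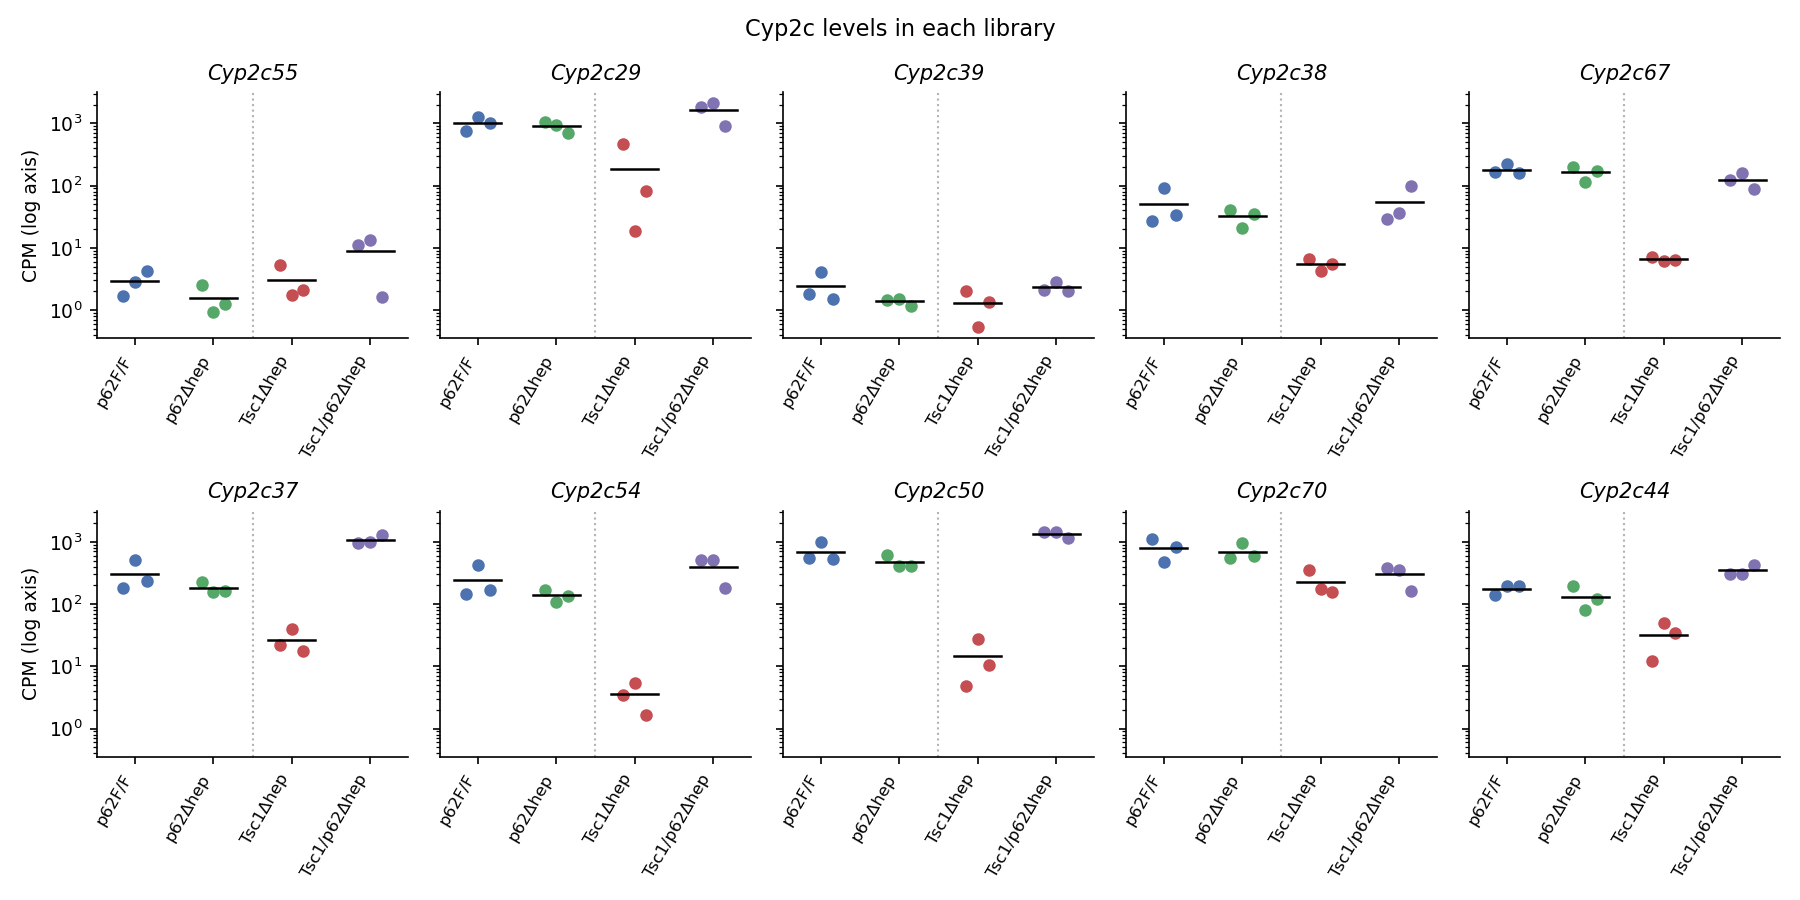
Level of each Cyp2c member (CPM, log axis) in the 12 libraries. Points are libraries 1 to 3 of a group from left to right, horizontal bars are group means, and the dotted line separates the 2 count tables. The Tsc1Δhep points of Cyp2c54, between 1.64 and 5.45 CPM, lie far below its Tsc1/p62Δhep points, between 179 and 510.2, while those of Cyp2c70 overlap.

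Libraries 1 to 3 of p62F/F held 3085, 4182 and 3159 CPM of the 10 members summed, and those of p62Δhep held 3075, 2785 and 2323. The sums were 883, 327 and 319 for Tsc1Δhep but 5606, 5944 and 4350.5 for Tsc1/p62Δhep. Every Tsc1Δhep library lay below every Tsc1/p62Δhep library, and library 1 was the highest of the Tsc1Δhep group.

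The make-up of the family differed as well. Cyp2c37, Cyp2c50 and Cyp2c54 together gave 51.4%, 49.5% and 61.5% of the members' summed CPM per kb in Tsc1/p62Δhep, against 3.37%, 22.1% and 9.19% in Tsc1Δhep. Their share was 28.2%, 46.2% and 29.1% in p62F/F and 32.8%, 23.9% and 29.9% in p62Δhep. Cyp2c70 gave 41.4%, 54.7% and 51.3% in Tsc1Δhep but 7.17%, 6.34% and 3.90% in Tsc1/p62Δhep. These shares sum to 100 within a library, so a rise of 1 member lowers the share of the others, and they were not tested.

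**Figure D2:**
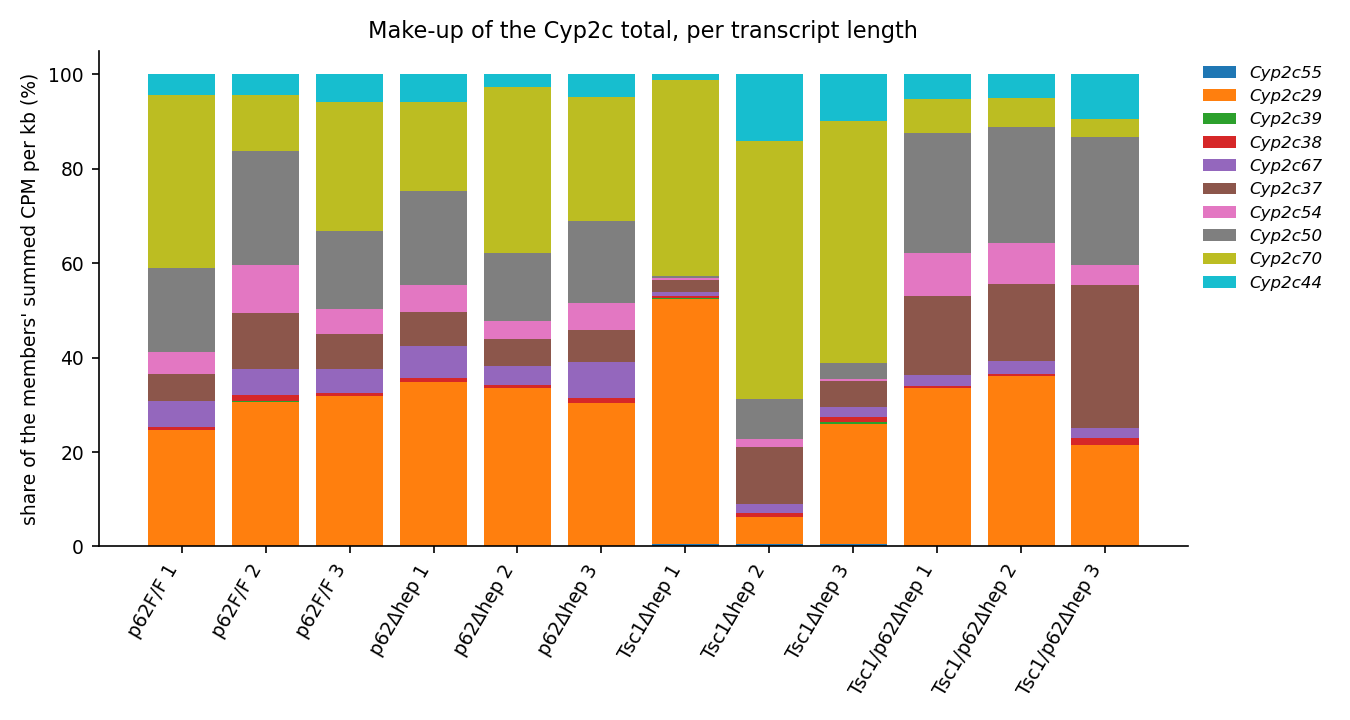
Share of each member in the summed CPM per kb of the 10 members, for each of the 12 libraries. The 3 genes Cyp2c37, Cyp2c54 and Cyp2c50 fill 49.5% to 61.5% of the bar in Tsc1/p62Δhep, and Cyp2c70 fills 41.4% to 54.7% in Tsc1Δhep.

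Deleting p62 alone gave no member past the threshold. In p62Δhep against p62F/F, 0 of 10 members were called at an adjusted p below 0.05 by edgeR's quasi-likelihood test, where 0.0159% of all genes tested were called (2 of 12567). At an unadjusted p below 0.05 the count was 0 of 10 members and 8.12% of all genes, and DESeq2 called 0 of 10 members and 1.36% of all genes. For each of the 10 members the libraries of the groups overlapped, while 12.8% of all genes did not overlap.

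The members' fitted values in this comparison ran from -0.91 (Cyp2c55, SE 0.47) to -0.17 (Cyp2c67, SE 0.23) on the log2 scale, with a median of -0.60 beside 0.00 for all genes. These values moved with p62F/F library 2. It had the highest p62F/F level of Cyp2c54 (419 CPM against 146 and 169 in libraries 1 and 3), of Cyp2c37 (506 against 182 and 238) and of Cyp2c38 (91.0 against 27.2 and 33.9), and without it the median was -0.20. Nr1i3, the gene of CAR, was also highest in that library, at 192 CPM against 56.6 and 49.98. In p62Δhep the corresponding levels were 171, 109 and 136 CPM for Cyp2c54, 227, 159 and 161 for Cyp2c37 and 41.2, 20.6 and 35.5 for Cyp2c38, within or near the span of the other p62F/F libraries.

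Among the 6 Cyp2c genes that are not members, Cyp2c40, Cyp2c68 and Cyp2c69, close copies of Cyp2c67, did not overlap between p62F/F and p62Δhep. Of all genes tested, 12.8% did not overlap, in either direction. Cyp2c53-ps did not overlap either, at 0.225, 0.593 and 0.717 CPM against 0.104, 0.125 and 0, but its counts were too low to be tested here. Cyp2c40 was at 2.99, 14.6 and 8.22 CPM in p62F/F and at 0.989, 0.940 and 0.422 in p62Δhep. Cyp2c69 was at 2.09, 11.4 and 8.77 CPM and at 0.625, 0.125 and 0.380. Cyp2c68 was at 129, 204 and 136 CPM and at 116, 89.1 and 126. None of these copies of Cyp2c67 passed the threshold of edgeR's quasi-likelihood test (log2 values of -3.49 for Cyp2c40, -4.27 for Cyp2c69 and -0.52 for Cyp2c68, adjusted p of 0.252, 0.250 and 0.615). Cyp2c67 itself was at 167, 219 and 157 CPM in p62F/F and at 202, 115 and 170.5 in p62Δhep, and these groups overlapped.

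On the Tsc1-deleted background most members were far higher when p62 was deleted as well. In Tsc1/p62Δhep against Tsc1Δhep, 6 of 10 members rose past the threshold and 0 fell, where 9.25% of all 12620 genes tested rose and 14.9% fell (24.2% in all). Scaling by library totals called 6 members as well, but split the calls over all genes into 576 higher and 3337 lower, against 1167 and 1886 with TMM, and moved the median of all genes to -0.40. Of the members, 7 of 10 were higher in every Tsc1/p62Δhep library than in every Tsc1Δhep library, against 22.3% of all genes. The members' median log2 fold change was 3.38, beside -0.05 for all genes tested.

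The largest rises were those of the neighbouring genes Cyp2c54, Cyp2c50 and Cyp2c37, which encode enzymes that oxidise arachidonic acid and, for Cyp2c50 and Cyp2c54, linoleic acid. Cyp2c54 was at 3.51, 5.45 and 1.64 CPM in Tsc1Δhep libraries 1 to 3 and at 503, 510.2 and 179 in Tsc1/p62Δhep. The groups were far apart, and library 3 was the lowest of each. The fitted change was 111-fold (log2 6.80, SE 0.66, edgeR adjusted p = 0.00115).

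Cyp2c50 had 4.76, 27.9 and 10.6 CPM in the 3 Tsc1Δhep libraries against 1439, 1460.2 and 1166 in Tsc1/p62Δhep. Its Tsc1Δhep libraries were scattered and its Tsc1/p62Δhep libraries close to each other, with no overlap. The fitted change was 94.0-fold (log2 6.56, SE 0.71, edgeR adjusted p = 0.00153), and without Tsc1Δhep library 2 the log2 value was 7.46. Cyp2c37 was at 22.4, 40.5 and 17.8 CPM and at 955, 985 and 1312. Here Tsc1/p62Δhep library 3 was the highest, the reverse of Cyp2c54, and the groups did not overlap. The fitted change was 40.2-fold (log2 5.33, SE 0.41, edgeR adjusted p = 0.000553). Summing the 3 rows before the fit, which removes the question of how reads were split between them, gave a log2 change of 5.98 (SE 0.47, adjusted p = 0.000580).

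Cyp2c67 had 7.10, 6.09 and 6.49 CPM in the 3 Tsc1Δhep libraries against 122, 160.3 and 88.4 in Tsc1/p62Δhep. Its Tsc1Δhep libraries were the least scattered of the members, and the groups did not overlap (log2 4.23, SE 0.29, edgeR adjusted p = 0.000483). Its near copy Cyp2c68 was not called. It had 331, 31.4 and 45.1 CPM in the 3 Tsc1Δhep libraries against 104, 112 and 111 in Tsc1/p62Δhep (log2 -0.33, SE 0.80, adjusted p = 0.785), and the groups overlapped through Tsc1Δhep library 1. Without that library Cyp2c68 turned to a rise past the threshold (log2 1.52, adjusted p = 0.00543). When Cyp2c67 was summed with Cyp2c68, Cyp2c40 and Cyp2c69, the log2 change was 0.65 (SE 0.78, adjusted p = 0.562) with all libraries and 2.38 (SE 0.26, adjusted p = 0.00175) without Tsc1Δhep library 1. The call on Cyp2c67 by itself, made with every library left out in turn, rests on the authors' split of reads among these genes.

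Cyp2c44, an arachidonate epoxygenase with no near copy in the tables, had 12.2, 49.9 and 34.0 CPM in the 3 Tsc1Δhep libraries against 309, 309.8 and 429.7 in Tsc1/p62Δhep. The groups did not overlap, and the fitted change was 10.9-fold (log2 3.45, SE 0.50, edgeR adjusted p = 0.00431). Cyp2c38, also an epoxygenase, was at 6.72, 4.21 and 5.48 CPM and at 28.8, 36.2 and 98.9. Library 3 was the highest of the Tsc1/p62Δhep group, and again the groups did not overlap (9.97-fold, log2 3.32, SE 0.51, edgeR adjusted p = 0.00511). Without that library the log2 value was 2.59 (adjusted p = 0.00798).

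The other 4 members did not pass the threshold. Cyp2c29 had 463, 18.6 and 81.6 CPM in the 3 Tsc1Δhep libraries against 1853, 2107 and 913 in Tsc1/p62Δhep. The groups did not overlap, but Tsc1Δhep library 1 was many times the other 2 (log2 3.10, SE 1.04, edgeR adjusted p = 0.0660). Without that library the log2 value was 5.03 and the adjusted p 0.00579. DESeq2 (adjusted p = 0.0202, in a test that called 7 of 10 members and 32.9% of all genes), limma (0.0253) and the fit of all 12 libraries (0.0137) also called it, and the adjusted p over all 16 alternatives ran from 0.00579 to 0.173.

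Tsc1Δhep library 1 was also the highest of the 12 libraries for Cyp2c65 (7.52 CPM), Cyp2c53-ps (16.7) and Cyp2c68 (331), and the highest of its group for Cyp2c40 (9.90 CPM) and Cyp2c69 (6.30). For Cyp2c50 and Cyp2c44 it was the lowest of the 12. The same library was the one with the highest cholangiocyte and progenitor marker sum, 5136 CPM and mostly Spp1, and the part of that in these values was not tested.

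Cyp2c55, which is known from colon and is inducible in liver, had 5.26, 1.72 and 2.10 CPM in the 3 Tsc1Δhep libraries against 11.1, 13.6 and 1.65 in Tsc1/p62Δhep. Its groups overlapped through Tsc1/p62Δhep library 3 (log2 1.53, SE 0.76, adjusted p = 0.169). Cyp2c39, a retinoic acid hydroxylase, was at 2.05, 0.529 and 1.32 CPM and at 2.13, 2.80 and 2.03 (log2 0.84, SE 0.53, adjusted p = 0.263). Its groups overlapped as well, at 20 to 49 counts per library.

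Cyp2c70 had the smallest fitted difference of the members. It was at 356, 172 and 158 CPM in Tsc1Δhep against 383, 359 and 159 in Tsc1/p62Δhep, and the groups overlapped nearly from end to end (log2 0.39, SE 0.44, edgeR adjusted p = 0.534). In p62F/F it was at 1099, 472 and 831 CPM and in p62Δhep at 554, 945 and 586. Cyp2c70 lies next to Cyp2c50 on the chromosome and, like Cyp2c50 and Cyp2c37, holds CAAAGNNCA within the 100 bases before its start.

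**Figure D3:**
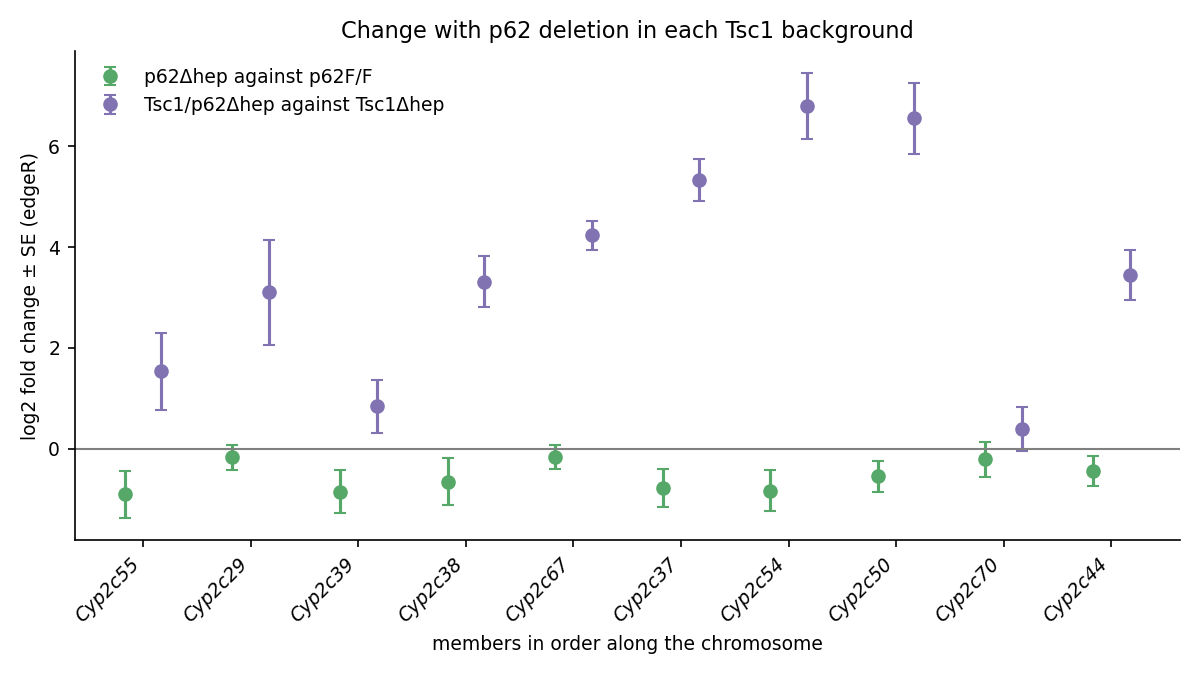
Fitted log2 fold change with its SE (edgeR, 3 libraries a group) for each member in p62Δhep against p62F/F and in Tsc1/p62Δhep against Tsc1Δhep, in the order of the genes along the chromosome. The second comparison peaks at Cyp2c54 (6.80) and Cyp2c50 (6.56) and is near 0 at Cyp2c70 (0.39), while the first lies between -0.91 and -0.17.

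Whether the p62 effect differed between the Tsc1 backgrounds was tested as an interaction in 1 model of the 12 libraries. It was past the threshold, and in the higher direction, for 6 of 10 members, where 6.76% of all 13231 genes tested were. No member was called lower, beside 9.32% of all genes, and either direction held 16.1% of genes. With library totals in place of TMM, 419 genes were called higher and 2391 lower, against 894 and 1233. DESeq2 called 7 of 10 members and 22.8% of all genes. The difference of the log2 changes was 7.61 (SE 0.80) for Cyp2c54, 7.09 (SE 0.77) for Cyp2c50, 6.09 (SE 0.59) for Cyp2c37, 4.39 (SE 0.38) for Cyp2c67, 3.96 (SE 0.76) for Cyp2c38 and 3.88 (SE 0.63) for Cyp2c44. Their edgeR adjusted p-values ran from 0.000132 (Cyp2c67) to 0.00667 (Cyp2c38). The values were 3.27 for Cyp2c29 (SE 1.14, adjusted p = 0.0691), 2.43 for Cyp2c55 (0.98, 0.109), 1.68 for Cyp2c39 (0.71, 0.120) and 0.60 for Cyp2c70 (0.61, 0.512). Without Tsc1Δhep library 1 the value for Cyp2c29 was 5.18 and its adjusted p 0.00230, and without Tsc1/p62Δhep library 3 Cyp2c55 had an adjusted p of 0.0289. Without p62F/F library 2 the value was 6.99 for Cyp2c54 and 3.25 for Cyp2c38. It was 8.01 for Cyp2c50 without Tsc1Δhep library 2 and 3.23 for Cyp2c38 without Tsc1/p62Δhep library 3, and all of these passed the threshold. For Cyp2c68, the near copy of Cyp2c67 that is not a member, the value was 0.19 (SE 0.93, edgeR adjusted p = 0.907). A scaling of 1 table as a whole drops out of this contrast, and the Cre that p62F/F lacks does not.

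Set beside the p62F/F libraries, the Tsc1Δhep libraries were lower than every p62F/F library for Cyp2c54, Cyp2c50, Cyp2c37, Cyp2c67, Cyp2c44, Cyp2c38, Cyp2c29 and Cyp2c70. The Tsc1/p62Δhep libraries were above every p62F/F library for Cyp2c37 (955 to 1312 CPM against 182 to 506), Cyp2c50 (1166 to 1460.2 against 525 to 1012) and Cyp2c44 (309 to 429.7 against 142 to 198). They were below every p62F/F library for Cyp2c70. For Cyp2c67 they were 88.4 to 160.3 CPM against 157 to 219, and for the other members they overlapped too. These levels come from different tables and were not tested.

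Regulators and partners of the family were described from lists. Of 23 regulators of hepatic Cyp2c transcription tested in Tsc1/p62Δhep against Tsc1Δhep, 7 rose and 0 fell (median log2 0.81, beside -0.05 for all genes). Nr1i3 had 1.09, 3.55 and 2.92 CPM in the 3 Tsc1Δhep libraries against 95.1, 86.0 and 90.3 in Tsc1/p62Δhep. The groups were far apart, and the fitted change was 35.6-fold (log2 5.15, adjusted p = 0.000787). Nr1i3 was at 49.98 to 192 CPM in p62F/F and at 26.2 to 64.6 in p62Δhep. Ahr, the dioxin receptor, rose 8.01-fold, Cebpb 2.75-fold and Foxa1 2.28-fold, with edgeR adjusted p-values from 0.00244 to 0.0374. Scaled by library totals, 3 of 23 regulators rose, and the call on Foxa1 was lost (adjusted p = 0.122). The count that rose also moved with single libraries, from 2 without Tsc1/p62Δhep library 1 or library 3, and 3 without library 2 of either group, to 13 without Tsc1Δhep library 3. Foxa1 was not called in any of the first 4 of these fits, nor Cebpb without Tsc1/p62Δhep library 1 or 3, while Nr1i3 and Ahr passed the threshold in each. Calls over all genes moved as well, from 1111 without Tsc1/p62Δhep library 1 to 5825 without Tsc1Δhep library 3, against 3053 with every library. List counts from fits without a library, here and below, are to be read beside that yield. In p62Δhep against p62F/F, 0 of 23 were called.

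Of 17 electron donors and haem enzymes, 5 rose and 1 fell, and their median was -0.09. Por, through which all microsomal P450s receive electrons, went from 206 ± 35.7 to 646 ± 180 CPM (SD, n = 3, 3.13-fold, edgeR adjusted p = 0.00743). The haem synthesis enzyme Cpox rose 5.98-fold, the cytochrome b5 gene Cyb5b 2.56-fold and the haem-binding gene Pgrmc2 2.11-fold. Hmox1, which breaks haem down, fell by 1.42 on the log2 scale (adjusted p = 0.00675). Without Tsc1/p62Δhep library 1 or library 2, 2 of the 17 genes rose, and Cyb5b and Pgrmc2 were not called. Cyb5b was not called without Tsc1Δhep library 2 either (adjusted p = 0.0538). Without Tsc1Δhep library 3, 5 rose and 4 fell.

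Among 23 other drug-metabolising P450s tested, 12 rose and 2 fell, with a median of 1.28. Cyp1a2 went from 22.1 ± 9.27 to 827 ± 114 CPM (37.4-fold, edgeR adjusted p = 0.000624) and Cyp3a11, the main xenobiotic-inducible Cyp3a of mouse liver, from 256 ± 220 to 6260.2 ± 1772 CPM (24.3-fold, adjusted p = 0.00404; SD, n = 3). Without Tsc1Δhep library 1, at 509 CPM against 139 and 119 in the other 2, the log2 value of Cyp3a11 went from 4.61 to 5.61. Of 18 genes for other arachidonate P450s and epoxide hydrolases, 3 rose and 2 fell, with a median of 0.72. Ephx2, the soluble hydrolase that opens the epoxides made from arachidonic acid, rose 3.81-fold (adjusted p = 0.0445). Cyp4f13 rose 2.54-fold and Cyp4f15 4.03-fold, and Cyp4f16 and Cyp4f18 fell by 2.43 and 3.58 on the log2 scale (edgeR adjusted p from 0.00583 to 0.0124). The call on Ephx2 was lost with library totals (adjusted p = 0.0855) and without Tsc1Δhep library 2 or any 1 Tsc1/p62Δhep library, and that on Cyp4f15 without Tsc1Δhep library 2. Without Tsc1Δhep library 3 the log2 value of Ephx2 was 2.57 in place of 1.93. The other P450s that rose numbered 6 without Tsc1/p62Δhep library 2 and 7 without library 1. In p62Δhep against p62F/F none of the genes tested from these lists was called.

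Markers of the liver's cells and zones moved in the same comparison. Of 16 hepatocyte markers 8 rose and 0 fell (median 1.25), and their summed level was 52493 to 92511 CPM in Tsc1Δhep and 121520 to 151799 in Tsc1/p62Δhep. Pericentral genes, expressed around the central vein as several Cyp2c genes are, rose in 8 of 14 and fell in 0 (median 3.15), from a sum of 711 to 2968 CPM to one of 18631 to 19268. Cyp2e1 alone was at 4.51 to 1204 CPM in Tsc1Δhep and at 10236.5 to 12175 in Tsc1/p62Δhep. Glul, the glutamine synthetase of the innermost pericentral layer, rose 5.50-fold and Lgr5 18.4-fold (edgeR adjusted p = 0.00881 and 0.0126). The pericentral count was 3 to 5 without Tsc1Δhep library 2 or any 1 Tsc1/p62Δhep library, where Lgr5 lost its call in 3 of these 4 fits, and 14 without Tsc1Δhep library 3, where the log2 value of Lgr5 went from 4.20 to 5.01. Periportal genes rose in 9 of 14 and fell in 2 (median 1.29), with sums of 24305 to 51685 and 64107 to 92118 CPM. Most of these sums was Alb, which is also a hepatocyte marker, at 13883 to 41028 CPM in Tsc1Δhep and 46668 to 71499 in Tsc1/p62Δhep. The lists share further genes, so their counts are not independent. Among these, Cps1 is both a hepatocyte and a periportal marker, and Cyp1a2 and Cyp2e1 are on both the other P450 and the pericentral lists. Without Tsc1/p62Δhep library 1, 5 hepatocyte and 4 periportal markers rose, and without library 2 of that group 5 periportal markers rose.

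Counts of markers of other cells in the fit with every library are read against the 14.9% of all genes that fell in it. In fits without 1 library, calls over all genes ran from 1111 to 5825, so the 14.9% is not the background of their counts. Of 13 macrophage and Kupffer cell markers 8 fell and 0 rose, with sums of 395 to 583 CPM in Tsc1Δhep and 141 to 167 in Tsc1/p62Δhep. Of 11 cholangiocyte and progenitor markers tested 6 fell and 0 rose, with sums of 797 to 5136 and 108 to 154 CPM. These sums were mostly Spp1, at 2620 ± 2182 CPM in Tsc1Δhep and 92.8 ± 21.3 in Tsc1/p62Δhep (SD, n = 3). Of 12 stellate cell markers 5 fell and 1 rose (sums 62.2 to 356 and 309 to 438 CPM), of 12 endothelial markers 1 fell and 0 rose (73.4 to 316 and 183 to 244), and of 5 lymphocyte and neutrophil markers tested 3 fell and 0 rose (19.2 to 34.0 and 7.52 to 8.91). The macrophage count that fell was 8 without each library in turn as well, and 1 marker rose without Tsc1Δhep library 1. The Kupffer cell markers Clec4f and Cd5l overlapped between the groups. Clec4f was at 0.0418 to 39.8 CPM in Tsc1Δhep and 21.9 to 30.7 in Tsc1/p62Δhep, and Cd5l at 0.209 to 53.1 and 25.4 to 31.4. Tsc1Δhep library 1 was the lowest for both. The cholangiocyte count was 2 without Tsc1/p62Δhep library 1 or 2 and the stellate count 1 without these or Tsc1Δhep library 2. The lymphocyte and neutrophil count was 1 without any 1 Tsc1/p62Δhep library, and the endothelial count 0 without library 2 or 3 of either group and 3 without Tsc1Δhep library 1. Whether fewer cells of a type or less RNA per cell lay behind a level cannot be told apart in these libraries, and the part of the cell mixture in the Cyp2c values was not tested.

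**Figure D4:**
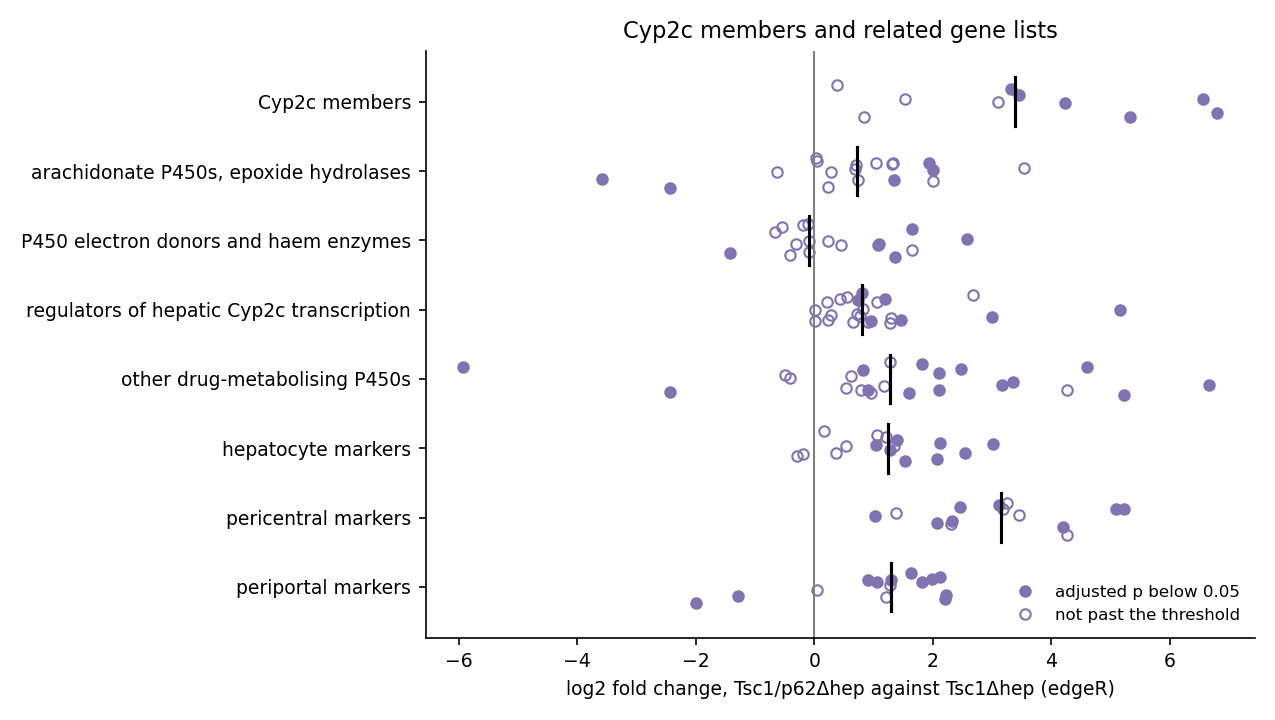
Log2 fold change of single genes in Tsc1/p62Δhep against Tsc1Δhep (edgeR), by list. Filled points passed an adjusted p below 0.05, open points did not, and black bars are the medians of the genes tested, 3.38 for the Cyp2c members, 3.15 for the pericentral markers and 1.25 for the hepatocyte markers.

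The genes whose pattern over the 12 libraries was most like that of the members' summed counts were Slc10a1, Lhpp, Slc25a21, Col5a2, Lect1 and Cyp3a25, ranked among 10986 genes by the root mean square difference of log2(CPM + 1), with each table's mean removed. Slc10a1, the bile acid uptake carrier of hepatocytes, differed by 0.33. It was at 359, 410, 269, 412, 244, 278, 72.02, 30.3, 44.4, 893, 992 and 688 CPM in the libraries in the order p62F/F, p62Δhep, Tsc1Δhep and Tsc1/p62Δhep. The values of the others ran from 0.44 (Lhpp) to 0.54 (Cyp3a25). For Cyp2c29, the member with the highest mean count, the nearest were Lhpp (0.73), Slc10a1 (0.73) and Cyp3a25 (0.92). For Cyp2c39, the member with the lowest, they were Ugt1a1 (0.15), Appl2 (0.23) and Cbx2 (0.24), small values that go with the low level of Cyp2c39 itself. The libraries are shared by all these genes, and the ranking is a description with no test.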

How the data were processed

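RNA-seq counts of 12 mouse liver libraries (4 groups of 3, grouped and numbered by their titles) were analysed. The deposited values are raw gene counts in 2 tables made by the authors, taken as counts because they are whole numbers with unequal totals; 1 table holds p62F/F and p62Δhep, the other Tsc1Δhep and Tsc1/p62Δhep. Per the labels' protocols, poly(A) RNA was made into directional libraries and sequenced single-end or paired-end on different instruments, with no statement of which library ran on which. The labels name no aligner, counting tool or annotation. The one build in the submitters' processing notes is hg19, a human build, although the symbols are those of mouse.

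Within each table, genes were kept by filterByExpr (minimum count 10, total 15), scaled by TMM and tested with edgeR 4.0.16 (quasi-likelihood, R 4.3.3) with Benjamini-Hochberg adjustment over all genes kept, at an adjusted p below 0.05. The interaction used all 12 libraries. SEs were derived from the fitted log2 change and its F statistic. DESeq2 1.42.0 and limma 3.58.1 (on log2(CPM + 1)) were alternatives, as were library totals, no filter, 1 fit of all libraries, a replicate block and leaving out each library. The script was tested on simulated data.

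Members and lists were chosen with earlier results of these data known. The text names all members and, from each other list, up to 5 genes with the smallest p in Tsc1/p62Δhep against Tsc1Δhep; Cyp2c genes outside the members are named too. Some genes that this rule would name are not reported here. Rn45s, Xist, Ddx3y, Alb, Cyp2e1, Clec4f and Cd5l were chosen after their values were seen. The promoter motifs were chosen after part of the promoter sequences had been seen. Lengths and coding sequences are those of the longest coding GENCODE M21 transcript.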

Additional observations from a re-analysis of the deposited data

Results flagged for a closer look

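For 6 of 10 members the effect of deleting p62 differed between the Tsc1 backgrounds by a test of the difference itself. This was edgeR's interaction contrast over the 12 libraries, which called 6.76% of all genes higher. The Cre that p62F/F lacks does not drop out of it. The difference of the log2 fold changes was 7.61 for Cyp2c54, 7.09 for Cyp2c50, 6.09 for Cyp2c37, 4.39 for Cyp2c67, 3.96 for Cyp2c38 and 3.88 for Cyp2c44, each higher on the Tsc1-deleted background. All 3 Tsc1/p62Δhep libraries lay above all 3 Tsc1Δhep libraries for each of these 6 genes, as they did for 22.3% of all genes. The p62F/F and p62Δhep libraries overlapped for each of the 6, where 12.8% of all genes did not overlap. Cyp2c37, Cyp2c54 and Cyp2c50 are alike in sequence, so their rows may not be 3 separate observations. The value for Cyp2c67 rests on the split of reads between it and its near copies. For the near copy Cyp2c68 the difference was 0.19 (SE 0.93, edgeR adjusted p = 0.907). In Tsc1/p62Δhep against Tsc1Δhep, Cyp2c67 summed with Cyp2c68, Cyp2c40 and Cyp2c69 was not called (log2 0.65, edgeR adjusted p = 0.562). Without Tsc1Δhep library 1 that sum was called (log2 2.38, adjusted p = 0.00175).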

How the results depend on the processing

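Cyp2c members called numbered 0 in all 14 alternatives for p62Δhep against p62F/F, 3 to 7 in 16 for Tsc1/p62Δhep against Tsc1Δhep (6 to 7 without each replicate) and 6 to 7 in 17 for the interaction. The 3 arose when all Cyp2c rows at least 90% identical in coding sequence were summed, which left fewer rows and ended the call on the row holding Cyp2c67. That summing, the same among members only (4 called), and leaving out Tsc1Δhep library 3 and Tsc1/p62Δhep library 1 together (6 called), and the first summing without Tsc1Δhep library 1 (5 called) were chosen after seeing the data. No summing of rows and no limma fit was run for the interaction, so its 6 to 7 calls were not put to the setting that gave 3. Summing by protein identity was not run.

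In p62Δhep against p62F/F the direction turned for Cyp2c29 (-0.34 to 0.027 over fits without each replicate) and Cyp2c38 (-0.96 to 0.082) without p62F/F replicate 2, for Cyp2c67 (-0.35 to 0.033) without p62Δhep replicate 2, and for Cyp2c70 (-0.50 to 0.080) without p62F/F replicate 1; none was called. For Cyp2c68 in Tsc1/p62Δhep against Tsc1Δhep it turned with limma (0.47), with the replicate block (0.58) and without Tsc1Δhep replicate 1 (range -0.77 to 1.52 without each replicate). The members' median was 3.91 without Tsc1Δhep replicate 1. Over all genes, calls numbered 1 to 171 (the latter by DESeq2, main 2), 1111 to 5825 (without Tsc1/p62Δhep replicate 1 and without Tsc1Δhep replicate 3, main 3053) and 911 to 4952 (main 2127). The cause was not tested.

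Libraries with the same number did not deviate together (correlations -0.42, -0.53 and 0.03 in 1 table, -0.08, -0.08 and -0.13 in the other), so the numbers were not taken as pairs. With a replicate block 0, 6 and 6 members were called, and 1, 1847 and 911 genes in all. Low counts limit Cyp2c39 and Cyp2c55.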
